A study of Mus musculus with 28 samples.

Results

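The nuclear-encoded subunits of the oxidative phosphorylation machinery were followed across 6 archival mouse livers. They were chosen by gene symbol alone: names beginning Nduf followed by a, b, c, s or v and a digit, the Sdh genes a to d, names beginning Uqcr, Cox genes of subunits 4 to 8, Cyc1, Cycs, and names beginning Atp5. This gave 86 genes with 117 probes, out of 37074 gene names with 55681 probes on the array. Complex I held 37 of the genes, complex II 4, complex III 9, cytochrome c 1, complex IV 18 and ATP synthase 17. The subunits encoded by mitochondrial DNA were not analysed here.

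All livers came from male B6C3F1 mice with a labelled age of 42 days. The exposed group was 3 mice given 0.05% phenobarbital (PB), a drug that induces drug-metabolising enzymes in liver, in drinking water for about 4 weeks. The control group was 3 mice on drinking water alone. Total RNA was extracted from whole liver fixed in formalin and kept in paraffin blocks for 16 years. Such RNA is likely fragmented, though its integrity was not examined here. It was amplified as cDNA and labelled chemically. The cDNA of each mouse went onto Agilent arrays at a 1.5-fold (1.5X) and a standard (1X) amount, with 6 one-colour arrays and 8 two-colour arrays at each amount. The questions were how far the arrays show the exposure in such tissue and how the amount of cDNA alters the signal. The replicate is the mouse, and repeat arrays of 1 mouse were averaged.

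Oxidative phosphorylation passes electrons from NADH through complex I, or from succinate through complex II, to coenzyme Q, then through complex III and cytochrome c to complex IV, which reduces oxygen. Complexes I, III and IV pump protons across the inner mitochondrial membrane, and ATP synthase uses the return flow to make ATP. Hepatocytes are rich in mitochondria, and several complex IV subunits exist as a liver or ubiquitous form and a form best known from heart, skeletal muscle, lung or testis.

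The livers carried the marker genes of hepatocytes. All 7 hepatocyte markers with a probe were well above background on all 12 one-colour arrays, with a summed level of 286.9 to 352.5 times the scaling percentile in PB mice and 321.2 to 376.7 in control mice. Markers of exocrine pancreas were also measured, 5 of 6 on all 12 arrays, and their sum varied from 38.6 to 239.6 in PB mice and from 55.8 to 251.1 in control mice. Of the skeletal muscle and heart markers 2 of 12 were on all arrays, Ckm, Mb, Myh1, Myh2, Myh4 and Mylpf were on none, and no fat marker was on all. Of all probes, 28.1 to 38.5% passed the background call on the one-colour arrays at 1.5X input, and 44.2 to 51.9% at 1X.

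The subunits were measured far more often than the array as a whole. On one-colour arrays 78 of the 86 subunits (90.7%) were well above background on all arrays at 1.5X input, and 82 (95.3%) at 1X. The shares over all genes were 29.9% at 1.5X and 44.4% at 1X. In the Cy3 channel of the two-colour arrays it was 78 subunits at 1.5X and 75 at 1X. The Cy5 channel was weaker, with 21 subunits on all arrays and 34 on none at 1.5X input, and 71 on all arrays at 1X.

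Among the complex IV isoforms, the liver forms were measured throughout and the others in some array sets or none. Probes of Cox4i1, Cox6a1, Cox6b1, Cox7a2, Cox7b and Cox8a, the liver or ubiquitous forms, were well above background on every one-colour array and in every Cy3 channel. Cox7b2 and Cox8c, best known from testis, were above background on none of them, and Cox8b, a form of heart, muscle and brown fat, was on 1 one-colour array. The remaining isoforms depended on the array set. Cox4i2, a form best known from lung, was above background on 0 of 6 one-colour arrays at 1.5X input and on 6 of 6 at 1X. Cox6a2, the heart and muscle form of its subunit, was on 1 of 6 at 1.5X and 6 of 6 at 1X. Cox6b2, a testis form, was on 2 of 6 at 1.5X and 6 of 6 at 1X, and Cox7a1, a heart and muscle form, on 4 of 6 at 1.5X and 6 of 6 at 1X. In the Cy3 channel the order of the inputs was turned round: Cox6a2 was on 8 of 8 arrays at 1.5X and 1 of 6 at 1X, and Cox4i2 on 4 of 8 at 1.5X and 0 of 6 at 1X. The counts of these 4 isoforms thus moved with the array set, and in opposite directions in the 2 formats.

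**Figure D1:**
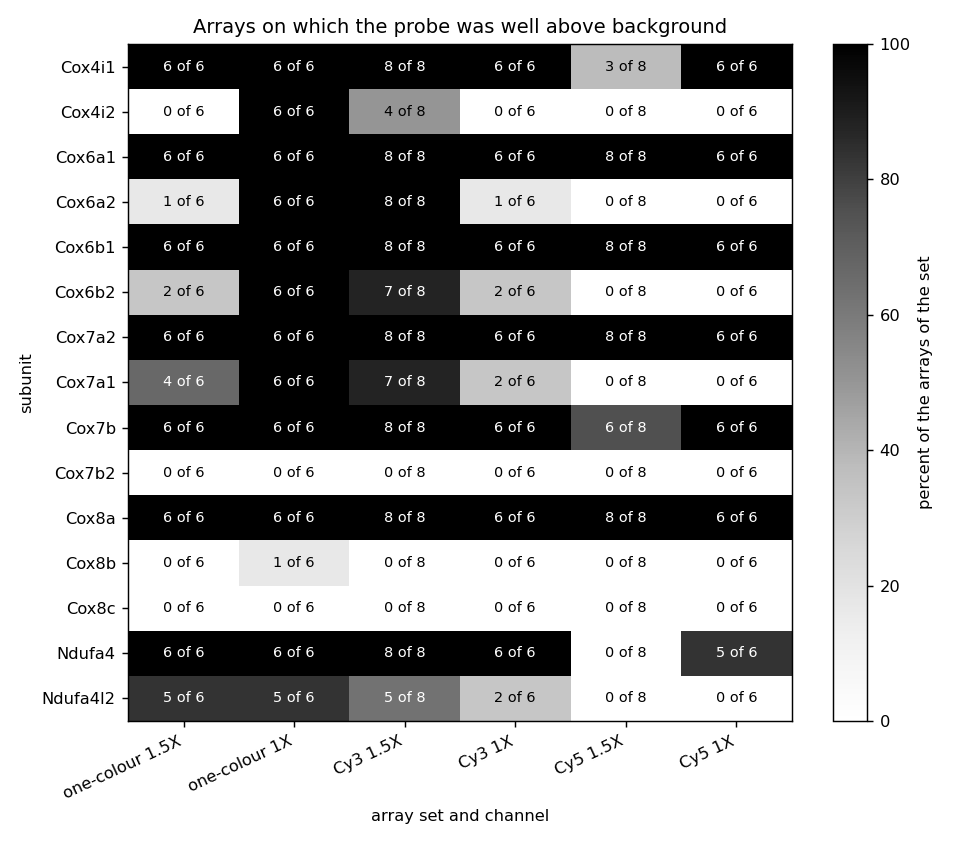
Number of arrays on which each of 15 subunit probes was well above background, by array set and channel (columns), shaded by the percent of arrays in the set. Cox6a1, Cox6b1, Cox7a2 and Cox8a were on all arrays of every set, whereas Cox6a2 was on 1 of 6 one-colour arrays at 1.5X input and 6 of 6 at 1X.

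The promoters of 4 subunits are given here because these had the lowest exposure p-values of the subunits with an entry in the promoter table, in the two-colour 1X set that gave the only exposure calls (described after the one-colour results). Each runs 5′ to 3′ on the gene's strand, from 250 bases before to 50 bases after the start (RefSeq, GRCm38.p6). Capitals mark matches to the motifs searched on both strands: GCGCATGCG for NRF1, TNAAGGTCA for ERR, AAGATGGCG for YY1 and CCGGAAG for ETS factors such as GABP, regulators known from mitochondrial genes. The regions are chr19:44555393-44555692 (minus strand) for Ndufb8, chr2:174464052-174464351 (minus) for Atp5e, chr9:50603800-50604099 (minus) for Sdhd and chr10:80406772-80407071 (minus) for Uqcr11.
Ndufb8: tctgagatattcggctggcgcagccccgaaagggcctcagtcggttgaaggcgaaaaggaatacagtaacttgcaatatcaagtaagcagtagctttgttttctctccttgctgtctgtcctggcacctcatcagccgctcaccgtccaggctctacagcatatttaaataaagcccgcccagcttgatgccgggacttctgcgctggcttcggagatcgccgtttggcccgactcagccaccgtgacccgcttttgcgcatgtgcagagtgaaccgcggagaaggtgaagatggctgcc
Atp5e: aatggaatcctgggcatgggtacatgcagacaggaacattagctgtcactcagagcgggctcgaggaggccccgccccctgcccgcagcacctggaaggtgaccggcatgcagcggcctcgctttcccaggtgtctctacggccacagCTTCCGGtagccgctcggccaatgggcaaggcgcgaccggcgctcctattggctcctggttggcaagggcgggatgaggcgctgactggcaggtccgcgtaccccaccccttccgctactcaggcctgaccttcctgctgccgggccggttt
Sdhd: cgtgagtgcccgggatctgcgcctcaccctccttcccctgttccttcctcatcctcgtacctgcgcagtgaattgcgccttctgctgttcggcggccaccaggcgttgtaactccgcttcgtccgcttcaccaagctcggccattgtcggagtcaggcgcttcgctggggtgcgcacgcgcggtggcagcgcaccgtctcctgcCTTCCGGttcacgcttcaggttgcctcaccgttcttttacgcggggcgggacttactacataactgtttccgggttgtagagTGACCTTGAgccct
Uqcr11: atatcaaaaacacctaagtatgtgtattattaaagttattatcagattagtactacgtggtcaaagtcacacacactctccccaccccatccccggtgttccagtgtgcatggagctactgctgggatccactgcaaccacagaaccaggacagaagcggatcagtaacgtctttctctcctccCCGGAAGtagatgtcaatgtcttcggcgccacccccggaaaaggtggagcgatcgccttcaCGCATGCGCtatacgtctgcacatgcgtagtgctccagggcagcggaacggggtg
The Atp5e window holds 1 ETS match, the Sdhd window an ETS and an ERR match, the Uqcr11 window an ETS and an NRF1 match, and the Ndufb8 window none of these letters. Of the 86 subunits, 69 had a promoter in the table and 30 of them held at least 1 of the motifs. The ETS motif was in 24.6% of the subunit promoters and in 9.93% of the promoters of all 27025 genes. The NRF1 motif was in 13.0% and 1.95%, the YY1 motif in 10.1% and 1.64%, and the ERR motif in 4.35% and 1.43%. A match is a run of letters and not a binding site, and no binding was measured here.

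Averaged over both one-colour inputs, no subunit passed the test for a difference with phenobarbital. Of the 86 subunits 79 passed the filter, which kept a probe if each array of an exposure group, or of both, had it well above background. None had an adjusted p under 0.05 in limma (Benjamini-Hochberg over all 12796 genes tested, of which 0.75% were called), and 2 had an unadjusted p under 0.05, against 13.4% of all genes. The fold changes nevertheless lay mostly on the low side: 68 of 79 (86.1%) were below 0, against 53.1% of all genes, and the median log2 difference, PB minus control, was -0.15 for the subunits and -0.02 for all genes. Among the 78 subunits that every array of both exposure groups had well above background, 67 were below 0. The subunits are co-measured in the same 6 mice, so these counts are not independent of each other. In whole liver, fewer cells of a type and less RNA per cell cannot be told apart.

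Per mouse, the subunits' median, taken after each gene was centred over the mice and set against the median of all genes, was 0.03, -0.15 and -0.11 in PB mice 1 to 3, and 0.13, 0.13 and -0.05 in control mice 1 to 3. PB mouse 1 lay above control mouse 3, so the groups overlapped. The means were -0.08 ± 0.09 in PB mice and 0.07 ± 0.10 in control mice (SD, n = 3 each). The groups also overlapped at 1X and at 1.5X input taken alone.

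**Figure D2:**
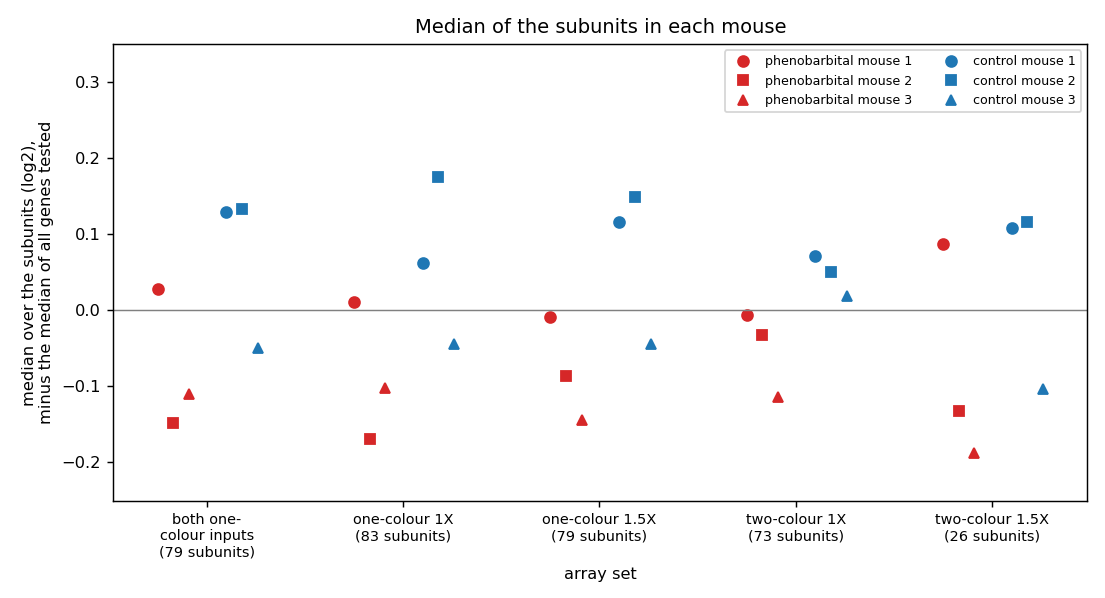
Median over the subunits in each mouse (log2, gene-centred, minus the median of all genes tested), for 5 array sets, PB mice in red left of control mice in blue. The groups overlap in every set other than two-colour 1X, where PB mice lie between -0.11 and -0.01 and control mice between 0.02 and 0.07.

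Complex I, the NADH dehydrogenase, gave 33 of 37 tested subunits below 0 and a median log2 difference of -0.18. Ndufa12, an accessory subunit, stood apart from it: its log2 level was -2.53, -2.50 and -2.55 in PB mice, and -2.84, -2.83 and -2.97 in control mice. It was the only subunit with every PB mouse above every control mouse, against 9.07% of all genes, and its difference of 0.36 (SE 0.13, 95% interval 0.05 to 0.67) had an unadjusted p of 0.0289 and an adjusted limma p of 0.310.

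Ndufa4l2, known as a hypoxia-induced paralogue of Ndufa4, passed the filter only through the control mice. At each input it was well above background on 2 of 3 one-colour arrays of PB mice and on all 3 of control mice. Its log2 level was -4.37, -4.86 and -4.34 in PB mice, and -3.56, -4.15 and -3.73 in control mice. The difference was -0.71 (adjusted limma p 0.230), and since the filter favours a probe that is low in the other group, its direction is a description.

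Other subunits of complex I were also followed, and Ndufa4 and Ndufb8 had differences larger in size than that of Ndufa12. Ndufs1, which carries iron-sulfur clusters, measured -1.36, -1.48 and -1.33 in PB mice, and -0.99, -1.10 and -1.20 in control mice, with no overlap (log2 difference -0.29, adjusted limma p 0.428). Ndufv1, which binds NADH and FMN, measured 0.78, 0.48 and 0.48 in PB mice, and 0.77, 1.05 and 0.67 in control mice, with PB mouse 1 inside the control range. Ndufa4, named with complex I and now assigned to complex IV, measured -2.24, -2.69 and -3.31 in PB mice, and -2.34, -2.03 and -2.64 in control mice, and overlapped (difference -0.41, adjusted limma p 0.599). The accessory subunit Ndufb8 measured 0.36, -0.27 and -0.23 in PB mice, and 0.35, 0.51 and 0.14 in control mice. Here PB mice 2 and 3 lay below all controls and PB mouse 1 among them (difference -0.38, SE 0.21, adjusted limma p 0.493). Ndufa8, another accessory subunit, had one of the few positive differences, 0.11 (adjusted limma p 0.880), with overlapping mice, and it was negative without scaling between arrays (-0.11) and without PB mouse 1 (-0.05) or control mouse 3 (-0.07).

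Complex II is succinate dehydrogenase, and all 4 of its subunits were below 0. Sdha, the flavoprotein that oxidises succinate, measured 0.33, 0.05 and -0.20 in PB mice, and 0.53, 0.66 and 0.25 in control mice. PB mouse 1 lay above control mouse 3 (difference -0.42, SE 0.19, unadjusted p 0.0631, adjusted limma p 0.405). The membrane anchor Sdhd measured -0.09, -0.61 and -0.45 in PB mice, and -0.05, -0.02 and -0.22 in control mice, while the anchor Sdhc differed by -0.01 (95% interval -0.34 to 0.32). The iron-sulfur subunit Sdhb measured 3.20, 3.02 and 3.32 in PB mice, and 3.34, 3.45 and 3.20 in control mice, which overlapped.

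In complex III, which passes electrons from coenzyme Q to cytochrome c, 8 of 9 subunits were below 0. Uqcr11, a small accessory subunit, measured 3.28, 3.08 and 3.16 in PB mice, and 3.49, 3.53 and 3.36 in control mice, with no overlap (difference -0.29, adjusted limma p 0.435). Uqcrfs1, the Rieske iron-sulfur protein, measured -2.73, -3.64 and -3.90 in PB mice, and -2.88, -3.00 and -3.35 in control mice, and PB mouse 1 was the highest of all 6. Cytochrome c1, Cyc1, measured 1.37, 1.04 and 1.11 in PB mice, and 1.30, 1.54 and 1.32 in control mice, which overlapped. Cycs, the mobile electron carrier between complexes III and IV, measured 2.02, 1.59 and 1.75 in PB mice, and 1.56, 1.89 and 1.71 in control mice, a difference of 0.06 (adjusted limma p 0.907).

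Complex IV, cytochrome c oxidase, had 11 tested subunits, 10 of them below 0, with a median of -0.08. Cox4i1, the ubiquitous form of the regulatory subunit, measured 0.66, 0.60 and 0.42 in PB mice, and 0.86, 0.94 and 0.75 in control mice. Its groups did not overlap (difference -0.29, SE 0.14, adjusted limma p 0.448), nor did those of Cox7b, a small structural subunit, at 1.86, 1.67 and 1.75 in PB mice and 2.18, 2.16 and 1.87 in control mice. The liver forms Cox6a1, Cox7a2 and Cox8a overlapped, and Cox8a differed by -0.04 (95% interval -0.36 to 0.29).

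ATP synthase had 13 of 17 subunits below 0 and a median of -0.12. Atp5o, the stalk subunit OSCP, measured -2.64, -2.91 and -2.62 in PB mice, and -2.07, -2.42 and -2.53 in control mice, with no overlap (difference -0.39, adjusted limma p 0.405). The epsilon subunit Atp5e measured 0.96, 0.67 and 0.63 in PB mice, and 1.14, 1.13 and 0.82 in control mice, and PB mouse 1 lay within the control range (difference -0.27, SE 0.17, adjusted limma p 0.542). The catalytic beta subunit Atp5b differed by -0.11 and the alpha subunit Atp5a1 by -0.26, while coupling factor Atp5j differed by 0.11 (adjusted limma p 0.842). The sign of Atp5j was negative without scaling between arrays (-0.11) and without PB mouse 1 (-0.07).

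Every PB mouse lay below every control mouse for 12 of the 79 subunits (15.2%), Ndufa4l2 among them, against 9.55% of all genes tested. The 95% interval of the difference lay within 1 log2 unit of 0 for 76 of the 79 subunits, with a median half-width of 0.37. Several probes were well above background on all arrays of both groups for 20 subunits. These probes differed in sign for 7 and in call for 0, with the widest spread, 0.37, in Atp5g2. Over all 21 subunits with several probes tested, the sign differed for 8 and the call for 0. Ndufv3, a flavoprotein-fraction subunit of complex I, then stood at 0.03 and -1.09 (adjusted limma p 0.348). Its second probe passed the filter only through the control mice.

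**Figure D3:**
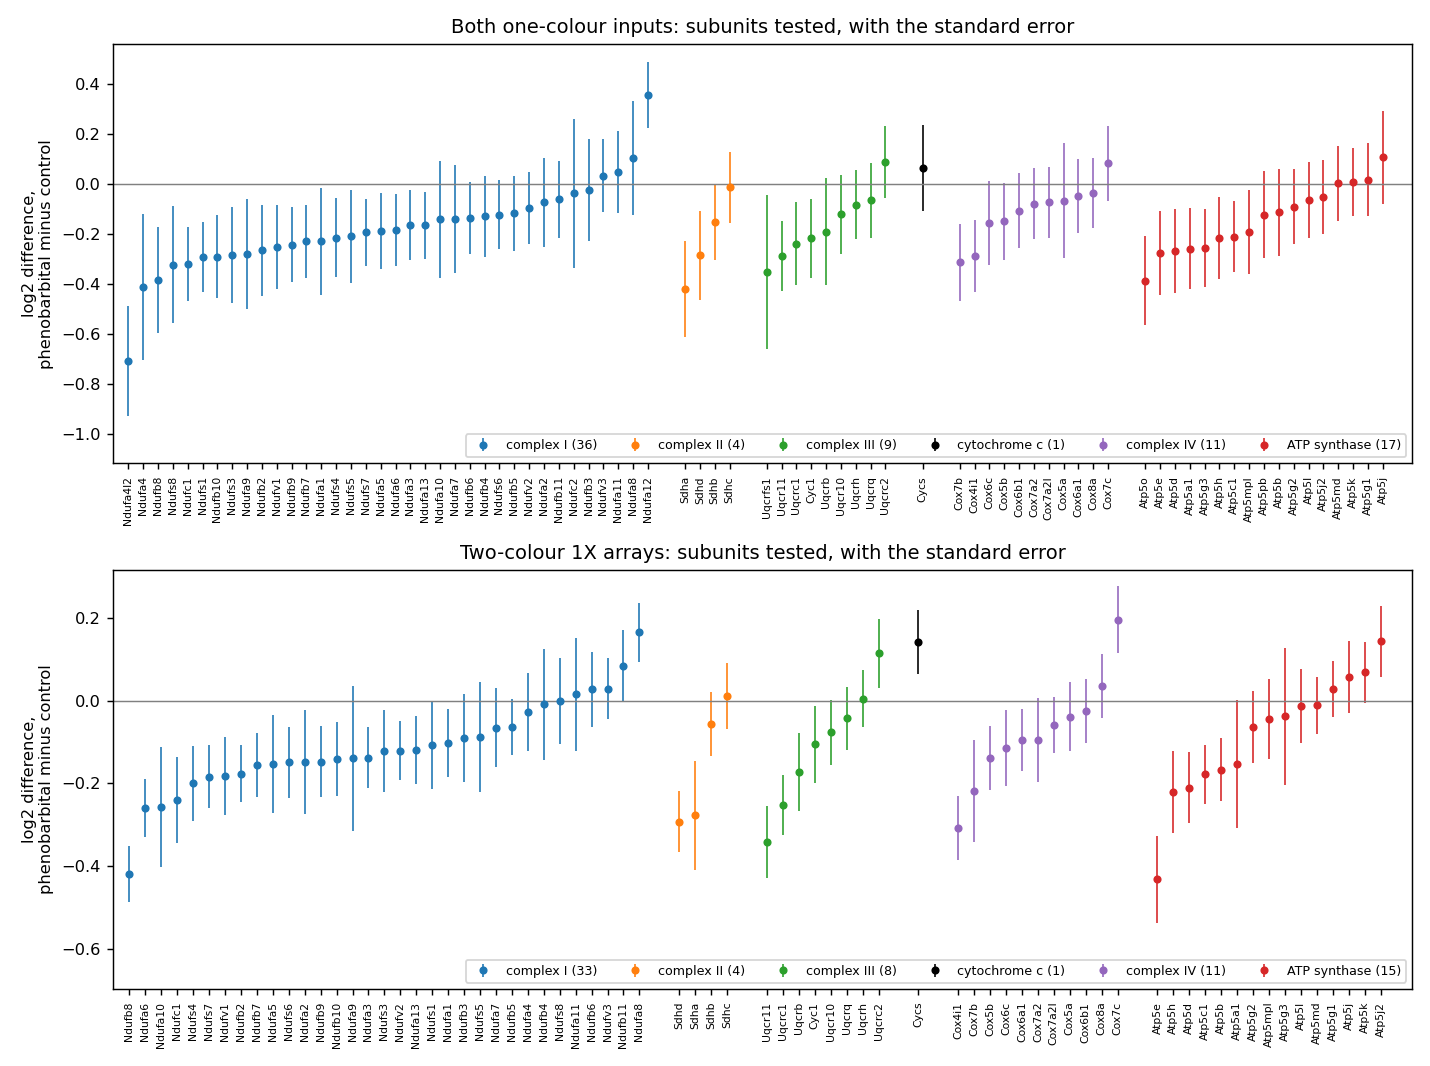
Log2 difference, PB minus control, of the subunits tested (points, 1 complex I subunit not drawn) with the standard error (bars), by complex, over both one-colour inputs (top) and in the two-colour 1X set (bottom). Most points lie below 0 in both panels, as did 68 of all 79 subunits tested at the top and 58 of 73 at the bottom, and Ndufa12 at 0.36 is the highest at the top.

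The 2 inputs taken alone gave no call among the subunits either. At 1.5X input 79 subunits were tested and 0 called by limma, against 0.237% of all genes, and 5 had an unadjusted p under 0.05, against 14.9% of all genes. These were Ndufa12 (0.47, adjusted limma p 0.250), Atp5o (-0.56, adjusted limma p 0.316), Cox4i1 (-0.35, adjusted limma p 0.327), Ndufb8 (-0.52) and Atp5e (-0.48). The groups did not overlap for Ndufa12, Atp5o and Cox4i1. For Ndufb8 (0.26, -0.41 and -0.19 in PB mice, and 0.46, 0.56 and 0.21 in control mice) and for Atp5e, PB mouse 1 lay above control mouse 3. At 1X input 83 subunits were tested, 0 were called by limma, against 0.161% of all genes, and 0 had an unadjusted p under 0.05, against 8.56%. The lowest differences at 1X were in Ndufa4l2 (-0.98, adjusted limma p 0.632), Ndufa4 (-0.61) and Ndufs8 (-0.49), an iron-sulfur subunit of complex I, and the highest were in Cox6b2 (0.43), Cox4i2 (0.39) and Ndufa12 (0.25). These moved with single mice. Without PB mouse 3, Ndufa4 stood at -0.28 and Ndufs8 at -0.15, and Ndufa4l2, on 2 of 3 arrays of PB mice, stood at -0.47 without PB mouse 2. Without control mouse 2, Cox4i2 stood at 0.0199, without PB mouse 2 Cox6b2 stood at 0.19, and Ndufa12 ran from 0.17 to 0.36. The exposure difference itself was compared between inputs within mice: 0 of 79 subunits were called by limma, with 0 at an unadjusted p under 0.05, against 0 and 5.78% of the 12796 genes.

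The two-colour 1X arrays gave the narrowest intervals (median half-width 0.20) and the only subunits called. Of 73 subunits tested, 2 fell with phenobarbital (2.74%) and 0 rose in limma, against 2.91% of all 8254 genes called lower and 3.36% called higher. The share called among the subunits was thus close to the background of the comparison.

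Ndufb8 fell in PB mice. Its log2 normalized signal was 8.43, 8.44 and 8.36 in PB mice, and 8.82, 8.83 and 8.83 in control mice, with means of 8.41 ± 0.05 in PB mice and 8.83 ± 0.01 in control mice (SD, n = 3 each). The groups lay far apart compared with their spread, and the difference was -0.42 (SE 0.07, 95% interval -0.57 to -0.26, adjusted limma p 0.0104). The call was lost in the Cy3 channel alone (adjusted p 0.488), with mouse numbers taken from the source names (0.288), and without control mouse 2 (0.0557) or control mouse 3 (0.0600).

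Atp5e also fell. It measured 9.08, 9.23 and 9.002 in PB mice, and 9.71, 9.51 and 9.38 in control mice, which did not overlap (difference -0.43, SE 0.10, adjusted limma p 0.0498). This call lay at the threshold and was lost when any 1 of the 6 mice was left out, with adjusted limma p between 0.0679 and 0.134. The other subunits with low p did not pass. Uqcr11 measured 11.74, 11.82 and 11.61 in PB mice, and 11.996, 12.17 and 12.03 in control mice (difference -0.34, adjusted limma p 0.0590). Cox4i1 measured 9.29, 9.20 and 9.21 in PB mice, and 9.64, 9.46 and 9.52 in control mice (difference -0.31, adjusted limma p 0.0570). Neither overlapped, and the same held for Uqcrc1, a core protein of complex III, at 10.38, 10.43 and 10.31 in PB mice, and 10.58, 10.69 and 10.62 in control mice (difference -0.25, adjusted limma p 0.0843).

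On the high side, Cox7c, a small complex IV subunit, measured 9.81, 9.78 and 9.98 in PB mice, and 9.61, 9.69 and 9.69 in control mice, again without overlap (difference 0.19, unadjusted p 0.0421, adjusted limma p 0.184). A second Cox7c probe differed by -0.03, but it passed the filter only through the control mice. In Cy5 it was above background on 1 of 3 arrays of PB mice, so its difference is a description. Cycs measured 10.08, 10.08 and 10.14 in PB mice, and 9.87, 9.94 and 10.06 in control mice, and the ATP synthase subunit Atp5j2 differed by 0.14.

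Over the 73 subunits of this set, 58 (79.5%) were below 0, against 51.6% of all genes, and the median was -0.11 against -0.01. The complexes had medians of -0.13 for complex I, -0.17 for complex II, -0.09 for complex III, -0.10 for complex IV and -0.04 for ATP synthase. Every PB mouse lay below every control mouse for 21 subunits (28.8%), against 16.6% of all genes, and above for 4, against 16.4%. An unadjusted p under 0.05 was reached by 15 subunits (20.5%), against 24.7% of all genes. All 73 intervals lay within 1 log2 unit of 0. Beside this, 2 of 7 hepatocyte markers tested were also called lower in this set, against 2.91% of all genes. These were Ttr, by 0.62 (adjusted limma p 0.00786), and Alb, by 0.39 (adjusted limma p 0.0213). The highest of the 7 were Apoa2 (-0.0045) and Fgb (0.0135), which were not called. The 5 pancreas markers tested had a median of -0.90 with wide errors, and 0 were called. The lowest, Prss2, differed by -0.99 (SE 0.84, adjusted limma p 0.511). The part of these markers in the subunit differences was not tested.

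**Figure D4:**
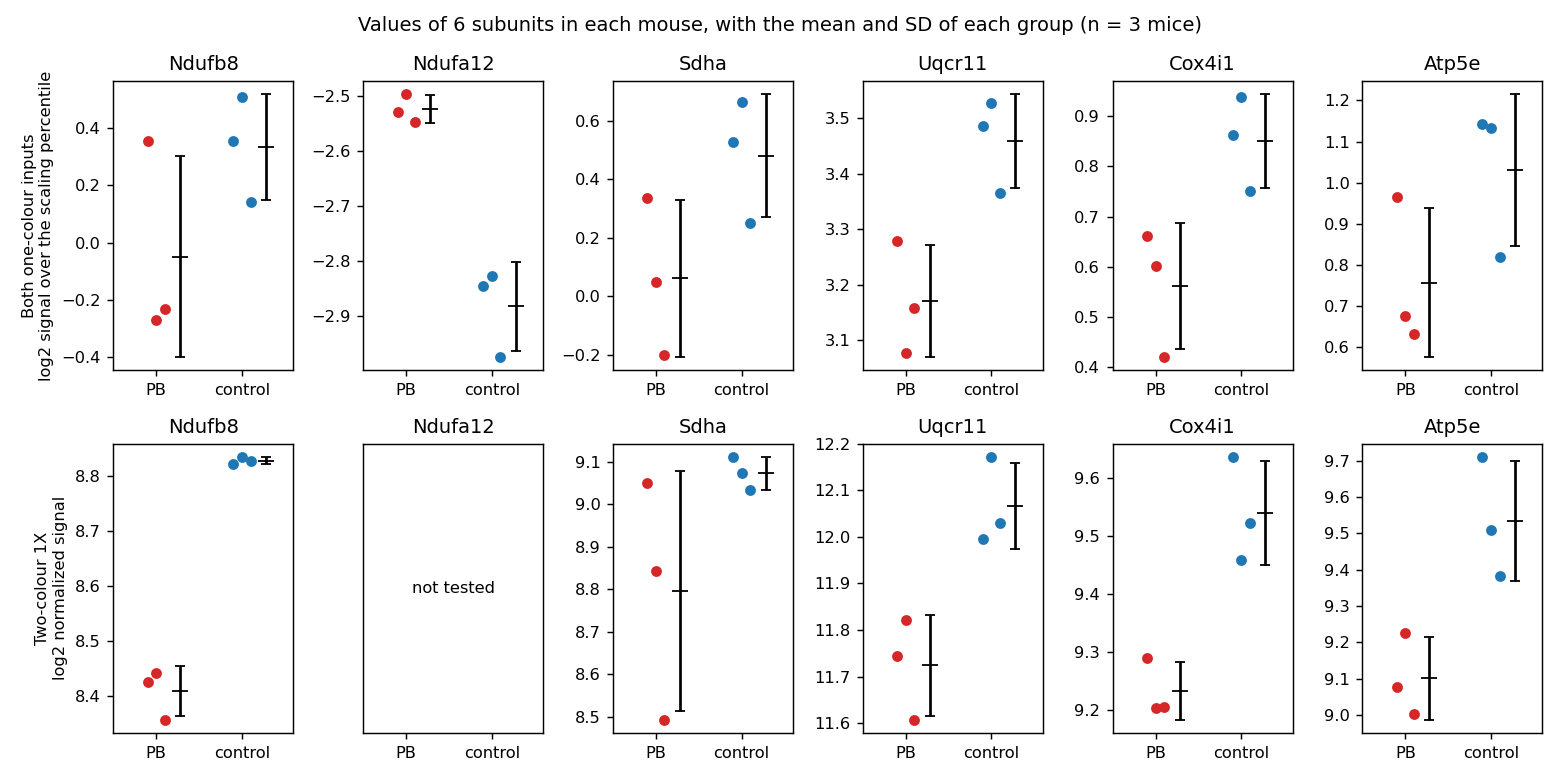
Log2 value of 6 subunits in each mouse, PB in red left of control in blue, with the mean and SD of each group (n = 3 mice), over both one-colour inputs (top) and two-colour 1X (bottom). Ndufb8 separates the groups in the two-colour 1X set, at 8.36 to 8.44 in PB mice and 8.82 to 8.83 in control mice, and overlaps on one-colour arrays, and Ndufa12 did not pass the filter on two-colour arrays.

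The two-colour 1.5X set could measure few subunits, since its Cy5 channel was dim. It tested 26 of them among 1661 genes, and limma called 0 of the subunits and 0% of all genes, with 0 subunits at an unadjusted p under 0.05, against 1.69% of all genes. The subunits' median was -0.07 and that of all genes 0.03. The lowest differences were in Atp5g2 (-0.49), a membrane c subunit of ATP synthase, Ndufa13 (-0.25) and Uqcr10 (-0.21), and the highest in Atp5g1 (0.29), Atp5k (0.10) and Cox8a (0.10), with overlapping mice in each and adjusted limma p of 0.999. With 1 mouse left out Atp5g2 ran from -0.73 to -0.10, the last without control mouse 1.

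Of the genes that serve the same machinery, limma called 0 in each list over both one-colour inputs, against the 0.75% of all genes. Assembly factors (30 tested) had a median log2 difference of -0.17, from Uqcc1 (-0.71), which assembles complex III, and Cox19 (-0.66) to Ttc19 (0.30) and Tmem70 (0.93), the last through 1 exposure group only. Enzymes of the citric acid cycle and pyruvate dehydrogenase (17) had a median of -0.16, from Dlst (-0.55) and Idh3b (-0.35) to Idh3a (0.75). Mitochondrial ribosomal proteins (64) had -0.14, from Mrpl39 (-0.81) and Mrpl43 (-0.46) to Mrps33 (0.48) and Mrps17 (0.50), the last again through 1 group only. Carriers with coenzyme Q and electron transfer flavoprotein genes (20) had -0.06, from Coq5 (-0.66) and Coq8a (-0.64) to Slc25a10 (0.29) and Ucp2 (0.81), where Coq5 and Slc25a10 passed the filter through 1 exposure group only. Regulators of mitochondrial genes (10) had 0.01, from the coactivator Ppargc1a (-0.75) and the nuclear receptor Ppara (-0.64) to Esrra (0.34) and Gabpb1 (0.35).

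In the two-colour 1X set, where 3.36% of all genes were called higher and 2.91% lower, limma called 2 of 17 carrier and coenzyme Q genes and 1 of 7 regulators. Coq8a, needed for coenzyme Q synthesis, fell by 0.67 (adjusted limma p 0.00648), and the uncoupling protein family member Ucp2 rose by 0.70 (adjusted limma p 0.0376). Ppargc1a (-0.46, adjusted limma p 0.0498) passed the filter through 1 exposure group only. None of 21 assembly factors, 15 citric acid cycle enzymes and 53 ribosomal proteins was called there.

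Many more subunits differed between the cDNA inputs, and on one-colour arrays mostly upward at 1.5X relative to other genes. With mouse as a term in limma, 41 of 82 subunits were higher at 1.5X than at 1X input and 7 (8.54%) lower, against 25.3% of all 16688 genes higher and 40.4% lower. A probe that only the arrays of 1 input had well above background could also pass the filter. Among the 78 subunits measured on all arrays of both inputs, 41 (52.6%) were called higher and 3 (3.85%) lower, against 36.1% and 23.1% of the 10856 genes so measured. The median log2 difference, 1.5X minus 1X, was 0.27 for the subunits and -0.13 for all genes tested, and 0.30 and 0.14 among those measured at both inputs. The split depended on the scaling: 67 of 70 called subunits were higher with the percentile taken over all probes, and 70 of 73 with no scaling, under which the median of all genes moved to 0.41. Within the one-colour format the input, the slide and the scan session cannot be told apart.

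By complex, 17 of 36 complex I subunits rose at 1.5X and 3 fell, 2 of 4 in complex II rose, 6 of 9 in complex III and 10 of 17 in ATP synthase rose with none falling, and in complex IV 5 of 15 rose. The 4 complex IV subunits called lower were measured on all arrays at 1X only. Ndufb2, an accessory complex I subunit, had within-mouse differences from 1.51 to 2.14 with a median of 1.71 over the 6 mice (mean 1.75, SE 0.12, adjusted limma p 8.29e-06). All 6 mice were likewise higher at 1.5X for Uqcrfs1 (differences 1.01 to 2.52), Atp5j (1.33 to 1.94), Ndufb5 (1.26 to 1.72), Ndufa8 (0.98 to 1.93) and Cox6c (1.35 to 1.79), a small complex IV subunit. Sdha rose by 1.08, Cycs by 0.80 and Cox7a2 by 1.04. Cox4i1 (0.23), Cox6a1 (0.20), Cox8a (0.10), Cyc1 (-0.16) and Sdhb (-0.18) did not pass.

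These 4 were the isoforms best known outside liver, and since they passed the filter only through 1X their direction is a description and not a result. The measured differences, over arrays partly not above background, ran from -2.81 to -1.64 for Cox6a2 (1 of 6 arrays above background at 1.5X), from -2.30 to -0.54 for Cox6b2 (2 of 6) and from -1.40 to 0.12 for Cox7a1 (4 of 6). The call of Cox7a1 was lost in 4 of 13 alternatives, with adjusted limma p up to 0.435. Cox4i2 was not well above background on any one-colour array at 1.5X. In the main scaling its mean at 1X lay 1.79-fold above the lowest signal among probes well above background on each 1.5X array. That value holds for this scaling only, since the median of all genes moved from -0.13 to 0.41 with no scaling. Its direction too is a description. Of the complex I subunits that fell, Ndufa12 (-0.33, adjusted limma p 0.0317) and Ndufa10 (-0.31, adjusted limma p 0.0225) did so by little. The call of Ndufa12 was lost in 7 of 13 alternatives and its sign turned in 2, and that of Ndufa10 was lost in 5 and turned in 2. Without scaling Ndufa12 (0.20) and Ndufa10 (0.23) were positive.

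In the Cy3 channel of the two-colour arrays the same cDNA amounts gave mostly the opposite order. There 2 of 78 subunits (2.56%) rose at 1.5X and 47 (60.3%) fell, against 16.9% of all 13386 genes higher and 46.5% lower, with a median of -0.33 for the subunits and -0.25 for all genes. Among the 75 subunits measured on all arrays of both inputs, 2 (2.67%) rose and 46 (61.3%) fell. The shares of the 8594 genes so measured were 16.2% and 53.8%. The medians were then close, at -0.33 for the subunits and -0.31 for all genes. With the scanner's processed signals 12 of 56 called subunits were higher, and the median of all genes moved to 0.75. The risers were Sdhc (0.33, adjusted limma p 0.0269) and Ndufb6 (0.30, adjusted limma p 0.0266), an accessory complex I subunit whose sign turned (-0.26) when all its probes were averaged. The call of Sdhc was lost in 5 of 11 alternatives (adjusted limma p up to 0.353) and that of Ndufb6 in 4. Of the 47, Ndufc2 was measured on all arrays of 1 input only. Ndufb5 was lower at 1.5X in all 6 mice, with differences from -1.06 to -0.66 and a median of -0.87, and Sdhd in all 6, with differences from -1.10 to -0.60 and a median of -0.89. Cox6c fell by 0.82, Ndufs5, an accessory complex I subunit, by 0.77 and Atp5b by 0.77. Atp5g3, an ATP synthase c subunit gene, had the lowest mean, -1.11 (SE 0.37, adjusted limma p 0.0220), with 1 mouse, PB mouse 2, at -3.76 and the others between -0.89 and 0.08. The value of PB mouse 2 rests on a single Cy3 array at each input.

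The difference between both formats was tested within mice. Of 78 subunits, 50 (64.1%) had a more positive input difference on one-colour arrays than in Cy3 and 1 (1.28%), Cox6a2, a more negative one (-2.39), against 37.3% and 33.5% of all 13337 genes. Cox6a2 was above background on 1 of 6 one-colour arrays at 1.5X and 1 of 6 Cy3 arrays at 1X, so its value is no measured difference. Among the 75 subunits measured on all arrays of both inputs and formats, 49 were more positive and 0 more negative, against 48.7% and 19.7% of 8547 genes. The largest were Ndufb2 (2.46), Ndufb5 (2.42), Cox6c (2.36), Atp5g3 (2.36), Atp5j (2.35) and Atp5a1 (2.20). With 1 mouse left out Atp5g3 ran from 1.74 to 2.59, and PB mouse 2 stood at -3.76 for it in Cy3. By sign, 61 of the 78 subunits were higher at 1.5X on one-colour arrays and lower at 1.5X in Cy3, against 5997 of the 13337 genes. The reverse held for 7 subunits and 3745 genes, and 3 subunits and 222 genes were higher in both. A turn between formats was thus common to the array. The Spearman correlation of the input differences between formats was -0.80 for the subunits and -0.80 for all genes. The 2 formats are separate arrays of the same 6 mice. The scan session ran the opposite way: the one-colour 1.5X and two-colour 1X sets shared 1 session, and the one-colour 1X and two-colour 1.5X sets the other, so input and session cannot be told apart within a format.

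**Figure D5:**
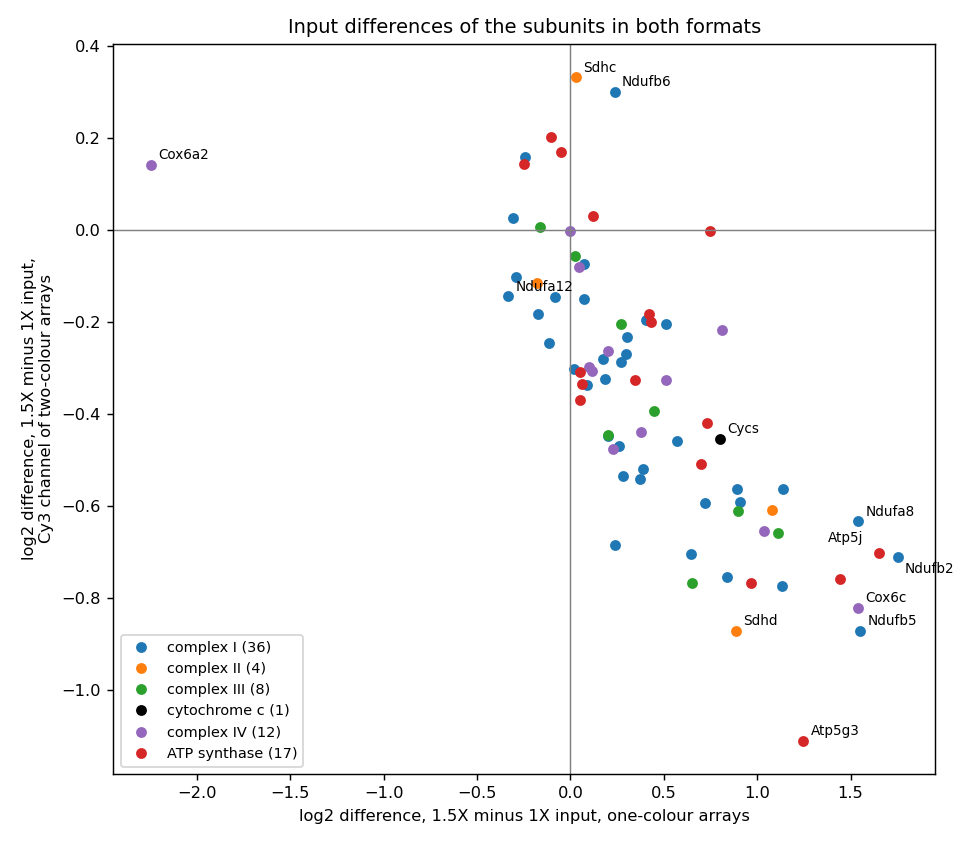
Log2 difference, 1.5X minus 1X input, of 78 subunits on one-colour arrays (horizontal axis) and in the Cy3 channel of two-colour arrays (vertical axis), each the mean of 6 mice, coloured by complex. Most points, 61 of 78, lie right of 0 and below 0, and Cox6a2, above background on 1 of 6 one-colour arrays at 1.5X, lies alone at the far left.

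Probes of 1 gene often disagreed on the input. Among 20 subunits with several probes well above background on all one-colour arrays, the probes differed in sign for 9 and in call for 7. Cox7c had probes at 0.11 and 0.66, and another was above background on 0 of 6 arrays at 1.5X. Cycs had probes at 0.80 and -0.61, and Uqcrq, the ubiquinone-binding subunit of complex III, at 1.11 and -1.03. In the Cy3 channel the Uqcrq probes stood at -0.66 and 0.84, each the other way than on one-colour arrays. For 10 subunits, among them Ndufa12, Cox7c and Cycs, the gene table also names a pseudogene, and a shared signal with such copies was not tested.

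The other mitochondrial lists were counted between the inputs over genes measured on all arrays of both, as above, where 36.1% of all genes were called higher and 23.1% lower on one-colour arrays. Of 17 citric acid cycle and pyruvate dehydrogenase genes 11 rose at 1.5X and 0 fell, and of 60 ribosomal protein genes 31 rose and 6 fell. Of 27 assembly factors 11 rose, Sdhaf2 by 1.35 among them, and 3 fell, of 17 carrier and coenzyme Q genes 10 rose and 0 fell, and of 10 regulators 4 rose, Esrra by 1.10 among them, and 1 fell. In the Cy3 channel 16.2% of all 8594 genes so measured were called higher and 53.8% lower. The counts of risers and fallers there were 0 and 11 of 16 for the citric acid cycle list, 2 and 34 of 53 for ribosomal proteins, 1 and 16 of 22 for assembly factors, 0 and 12 of 17 for carriers and 0 and 4 of 7 for regulators.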

How the data were processed

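The members and gene lists were chosen with earlier results of these data known. Per the file headers, the authors extracted the arrays with Feature Extraction 11.0.1.1. An intensity per spot is given in the deposited scanner tables, as processed and median signals. Two-colour tables add the authors' log10 ratio (Cy5 to Cy3). The deposited spot flags (other) include the call of well above background. The authors' series matrix was used as an alternative. The headers name mouse build mm9, and symbols came from RefSeq accessions matched to GRCm38.p6, for names only.

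One-colour values were log2 processed signals minus each array's 75th percentile over probes that every array of the comparison called well above background. Two-colour median signals went through normexp (offset 50), loess (span 0.3) and Aquantile steps, and a mouse's value was the mean of its dyes. For the input comparison in Cy3, normexp-corrected signals were scaled to the same percentile. Spots with outlier flags (0.256%) were left out. The probe with the highest mean one-colour signal stood for a gene. Of the two-colour 1X arrays, 2 of 8 were left out because their labels give the exposures opposite dyes, and on 4 others the description and source name differ in mouse number, of which the description was used.

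Tests used limma 3.58.1 in R 4.3.3 (lmFit, eBayes, Benjamini-Hochberg over all genes tested, threshold 0.05), checked on simulated data. For arrays there is no count depth, and the 3 mice per group limit the precision. Named are the subunits past the threshold (the 6 highest and 6 lowest where over 12 passed), the 3 highest and 3 lowest in each comparison, a panel by role with the isoforms, genes whose probes disagree, and 2 highest and 2 lowest per list. Some genes that this rule names are not reported here. Others were named after their values were seen: Uqcr11, Uqcrc1 and further subunits whose groups did not overlap or whose unadjusted p was under 0.05, and those given to show each complex. Alternatives varied the normalization, scaling, filter, probe rule, dye, mouse numbers, replicate block and mice left out. Counts over genes well above background on all arrays of both groups were added after the data were seen.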

Additional observations from a re-analysis of the deposited data

Results flagged for a closer look

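Each of the following input differences (1.5X minus 1X, Cy3 channel, log2) lay farther from the other 5 mice than Dixon's 95% critical value allows, which chance gives in about 1 in 20 groups. PB mouse 2 stood low for Atp5g3 (-3.76) and for Ndufs5 (-1.27), and for the median of complex II (-0.51). PB mouse 1 stood high for the median of complex I (-0.21). The list does not cover every subunit, and the number of groups looked at is not given here. Ndufv2, for example, is not in it, though PB mouse 2 went from 1.41 at 1X to -0.67 at 1.5X.

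The input difference itself differed between one-colour arrays and the Cy3 channel for 51 of 78 subunits (limma, one-colour minus Cy3). In the same test 37.3% of all 13337 genes were called more positive and 33.5% more negative, so such a difference was common over the array. Of the 6 highest, Ndufb2 stood at 2.46, Ndufb5 at 2.42, Cox6c at 2.36, Atp5g3 at 2.36, Atp5j at 2.35 and Atp5a1 at 2.20, and Cox6a2, at -2.39, was the single subunit on the other side. That value rests on signals not above background, with Cox6a2 above background on 1 of 6 one-colour arrays at 1.5X and 1 of 6 Cy3 arrays at 1X. The value of Atp5g3 ran from 1.74 to 2.59 with 1 mouse left out.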

How the results depend on the processing

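The sign of the subunits' median relative to all genes, PB minus control, held under each alternative in all 5 array sets, from -0.22 to -0.09 over both one-colour inputs, and was -0.24 at one-colour 1.5X without the filter on dim probes. No subunit was called over both one-colour inputs, at either one-colour input or at two-colour 1.5X under any alternative. In two-colour 1X the 2 calls became 1 with the mean over all probes and 1 with processed signals, 0 in Cy3 only, 0 with mouse numbers from source names, and 0 to 1 with a mouse left out. The replicate numbers did not pair mice in the one-colour values (correlations of 0.05, -0.12 and 0.28). In two-colour 1X each array held 1 PB and 1 control mouse. By the description PB mouse 3 and control mouse 3 shared their arrays there, and the main test left this pairing out. With the replicate block 3 subunits were called in two-colour 1X, and 35 of all genes over both one-colour inputs, against 96 without it. All-gene counts over the other alternatives ran from 10 to 143 over both one-colour inputs, 3 to 30 at 1X, 4 to 167 at 1.5X, 100 to 688 in two-colour 1X and 0 to 12 in two-colour 1.5X, and from 9583 to 21584 and 7425 to 30245 for input on one-colour arrays and in Cy3. For input on one-colour arrays, the subunit median minus that of all genes was 0.40, 0.29 after quantile normalization and 0.11 without the filter, and 73 subunits were called without scaling. Over genes well above background on all arrays of both inputs, an alternative chosen after seeing the data, it was 0.16, and 0.20 for the input difference between formats, with 3920 and 4166 of all genes called higher and 2506 and 1683 lower. In Cy3 it was -0.07, -1.16 with processed signals, -0.27 after quantile normalization and 0.32 without the filter. Without the filter it also turned for the exposure difference between inputs (0.038) and the input difference between formats (-0.11). Signs turned without scaling for Atp5j (-0.11), Ndufa8 (-0.11), Ndufa12 at 1X (-0.047) and, for input, Ndufa12 (0.20) and Ndufa10 (0.23), with Ndufa10 also turned by the percentile over all probes (0.021) and Ndufa12 by quantile normalization (0.082). With probes averaged they turned for Cycs at 1.5X (-0.041) and Ndufb6 for input in Cy3 (-0.26) and for exposure between inputs (-0.062). With processed signals they turned for Cox8a in two-colour 1.5X (-0.0195) and Atp5g1 for input (-0.18), and in Cy3 only for Cox8a (-0.046), Atp5g1 (-0.087), Atp5k (-0.16) and Ndufa13 (0.0023). Leaving out 1 mouse gave ranges across 0 for Atp5j (-0.071 to 0.23) and Ndufa8 (-0.070 to 0.28) over both one-colour inputs, Atp5k (-0.0076 to 0.25) and Cox8a (-0.017 to 0.21) in two-colour 1.5X, and, for exposure between inputs, Atp5o (-0.60 to 0.025) and Ndufa4l2 (-0.16 to 1.05). For exposure between inputs, the subunit median minus that of all genes also ranged across 0 with 1 mouse left out (-0.067 to 0.013). The causes were not tested. No scaling moved the all-gene median to -0.23 over both one-colour inputs, -0.28 at 1X and -0.16 at 1.5X. The dim Cy5 channel at 1.5X limits that set to 26 subunits.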
